A study of Danio rerio with 12 samples.

Results

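The genes described here encode the transcription factor AP-1 and other immediate-early proteins. They were 10 listed names (JUN, JUNB, FOSB, fosab, fosl1a, atf3, egr1, ier2a, ier2b and npas4a), looked up among the 32057 genes counted in every library. A name was matched to the gene symbol without regard to case or, where that symbol was absent, without its final a or b. The listed fosab was found through its synonym fos, since the name without its final b is not a symbol. The 10 names gave 12 genes, because JUNB and NPAS4 each stand for a pair of paralogs that are told apart below by their Ensembl identifiers. The symbols do not say which paralog is a and which is b. All 12 genes passed the filter on low counts that left 23075 genes to be tested. The genes were selected on their measured differences between exposed and control larvae at 7 and 10 dpf (days post fertilization), which were already known. Those differences are therefore given as a description, and nothing is read from counts of them past a test threshold.

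AP-1 is a dimer of proteins with a basic leucine zipper, usually a Jun with a Fos or an ATF partner, that binds a short palindromic DNA element. Many of its genes, like EGR, IER and NPAS4 genes, are transcribed within minutes of a stimulus, with no need for new protein synthesis. Such a stimulus can be a growth factor, a wound, a stress or the firing of a neuron. Mitogen-activated protein kinases and serum response factor are among the best known routes to them, and the induced factors then act on later genes of growth, repair and inflammation.

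Messenger RNA was read in entire larvae of Danio rerio of the AB strain. The 4 groups of 3 libraries were larvae kept in tritiated water (HTO, water in which part of the hydrogen is radioactive tritium) with a dose rate of 0.4 mGy/h and control larvae without it, at 10 and at 7 dpf. The labels give sea salt at 60 mg/L for all groups. All larvae were raised at 28 °C from eggs collected 3 h after fertilization, the exposed ones in an incubator within a glove box and the controls in another incubator of the same room. Exposure and incubator therefore cannot be told apart. Nothing in the labels says how many larvae went into a library or whether libraries came from separate spawnings, so p-values measure the spread between these libraries only.

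Libraries held 19.4 to 67.3 M reads on genes (M, 1e6), and the listed genes had 158 to 28335 reads per library. Of 64 marker genes of organs that a whole larva holds, 56 had a mean of at least 1 count per 1e6 reads on genes (CPM). On the first principal component (44% of the variance) the exposed libraries of 10 dpf stood at 5.44 to 17.53. They lay between the libraries of 7 dpf (-55.65 to -9.4) and the controls of 10 dpf (56.98 to 63.52). How this placement bears on the exposure changes at 10 dpf was not tested. Exposed replicate 1 at 10 dpf stood apart from the other libraries on the second principal component (-79.7 against -24.79 to 33.82, 21.2% of the variance). It was low in the summed markers of liver (231 CPM, against 1330 and 1990 CPM in the other exposed libraries of that age), pancreas (1250 CPM, against 9980 and 12300 CPM) and intestine (647 CPM, against 1170 and 1350 CPM). The main changes and counts that rest on it are also given without it. Levels below are CPM, listed for replicates 1, 2 and 3 of a group, and CPM are not corrected for gene length, so levels are compared between groups and not between genes.

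The listed genes had opposite signs at the 2 ages in most cases. At 10 dpf 11 of 12 had a log2 fold change above 0 in exposed against control larvae, with a median of 0.45, where the median of all tested genes was -0.004. Without exposed replicate 1 of that age these medians were 0.37 and 0.01. At 7 dpf 9 of 12 were below 0 (8 with RLE or upper quartile scaling), with a median of -0.24 against -0.01 over all genes. Lower at 7 dpf and higher at 10 dpf were 8 genes (JUN, both JUNB genes, FOSB, FOS, ier2a and both NPAS4 genes), a combination found in 20.1% of all tested genes, but NPAS4 ENSDARG00000087753 stood at -0.01 at 7 dpf and at 0.008 with RLE and 0.001 with upper quartile scaling. As single libraries were left out, the 9 were 7 to 10 and the 8 were 6 to 9, because ier2a, ier2b, FOSL1 and NPAS4 ENSDARG00000087753 changed sign at 7 dpf. Both counts were lowest without exposed replicate 3 of 7 dpf. FOSL1, egr1 and ier2b were above 0 at both ages, and ATF3 was below 0 at both (above 0 at 10 dpf without exposed replicate 1 of that age). The change at 10 dpf was above that at 7 dpf in all 12 genes, as it was in 50.7% of all tested genes. These larvae were measured whole, so fewer cells of a type and less RNA per cell cannot be told apart.

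**Figure D1:**
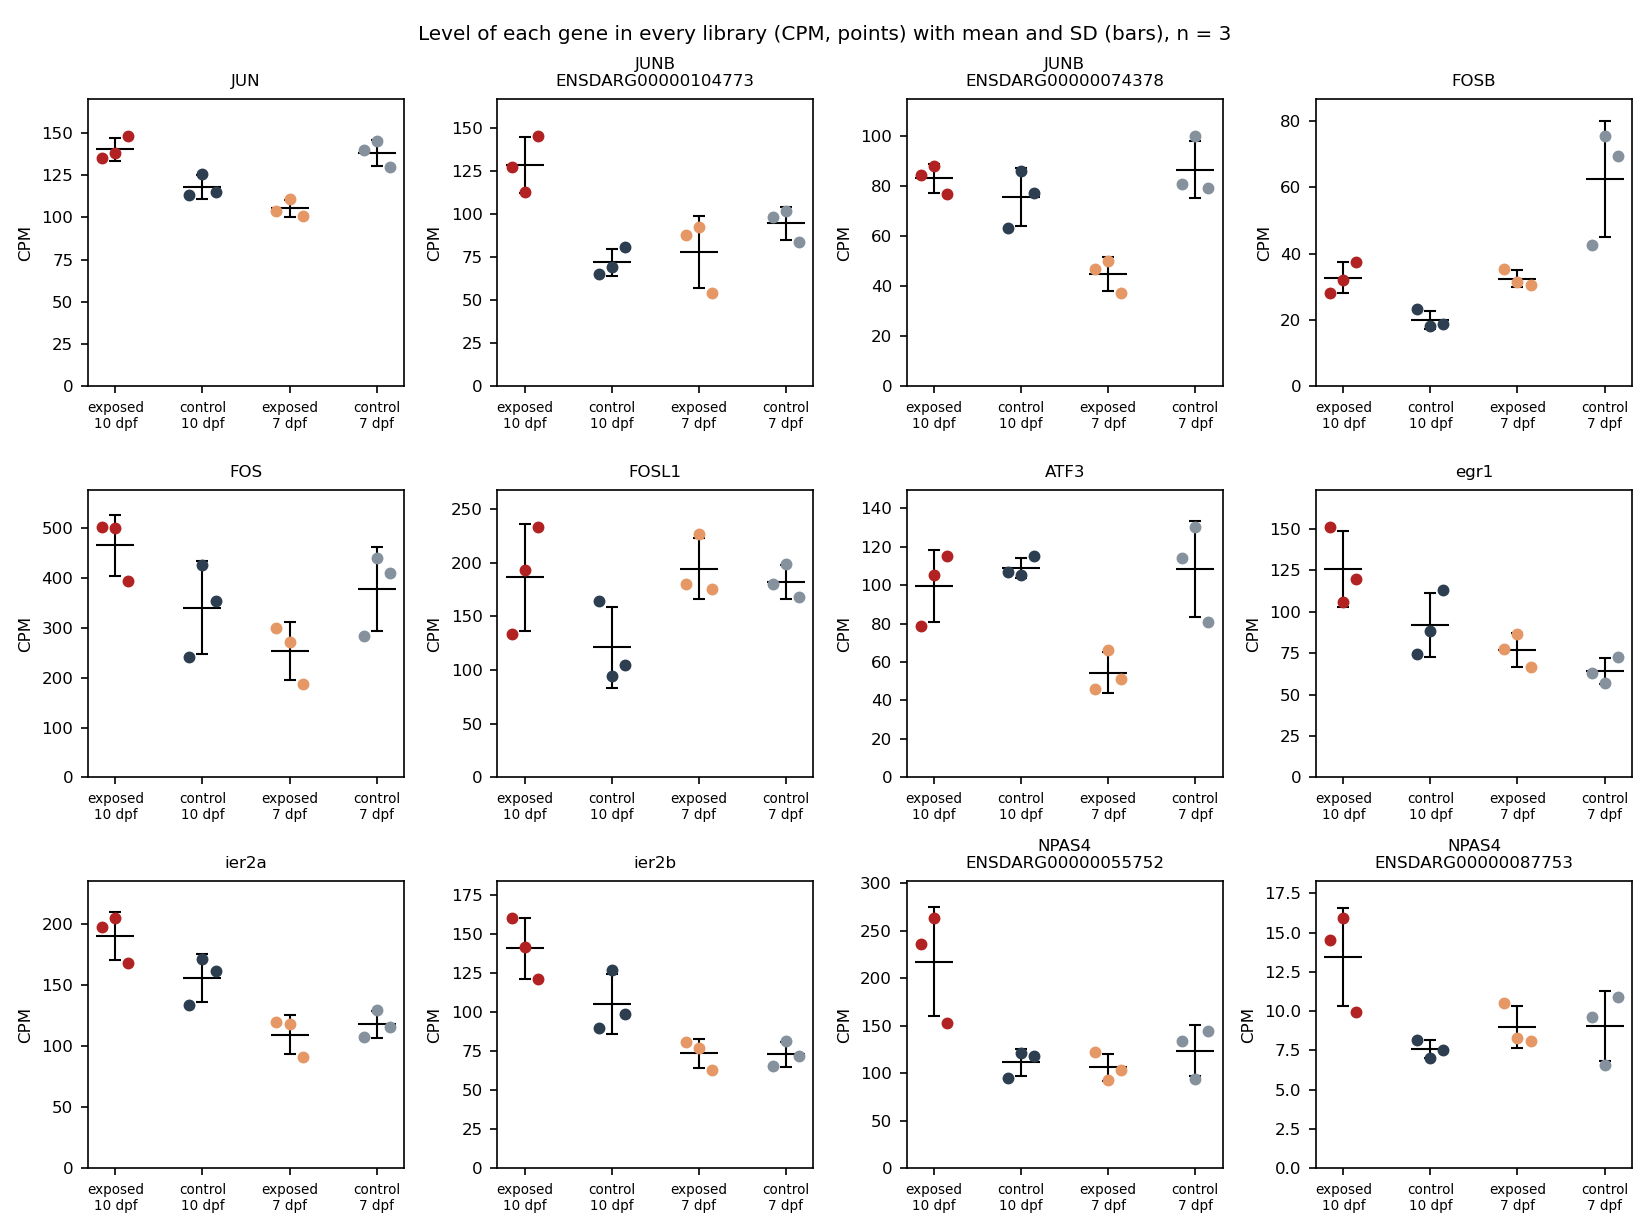
Levels of the 12 listed genes in CPM (vertical axes, each from 0) in every library, by group; points are libraries, and bars are group means with the SD (n = 3). Exposed libraries at 10 dpf have the highest mean in 8 genes, and exposed libraries at 7 dpf the lowest mean in 6.

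Among the Jun subunits, JUN (ENSDARG00000043531), the founding member of AP-1 and a main substrate of the Jun N-terminal kinases, kept closely spaced replicates. Its levels at 10 dpf were 135, 138 and 148 CPM in exposed larvae, against 113, 126 and 115 CPM in controls. At 7 dpf they were 104, 111 and 101 CPM in exposed larvae, against 140, 145 and 130 CPM in controls. The groups did not overlap at either age, and they stood in opposite order, at log2 fold changes of 0.25 ± 0.07 (SE) at 10 dpf and -0.39 ± 0.07 at 7 dpf. The mean of exposed larvae at 10 dpf (140 ± 6.71 CPM, SD, n = 3) and that of controls at 7 dpf (138 ± 7.45 CPM) differed by less than the spread of either group.

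JUNB encodes a Jun protein that in mammals can restrain JUN as well as act with Fos partners, and its paralogs differed in where exposed and control larvae parted. JUNB ENSDARG00000104773 had 127, 113 and 145 CPM in exposed larvae at 10 dpf, against 65.4, 69.4 and 80.9 CPM in controls, a log2 fold change of 0.84 ± 0.18 with every exposed library above every control. At 7 dpf it had 88.0, 92.2 and 54.0 CPM in exposed larvae, against 98.1, 102 and 83.5 CPM in controls, and the groups overlapped (-0.27 ± 0.18). JUNB ENSDARG00000074378 showed the reverse. At 10 dpf its 84.7, 88.0 and 76.8 CPM in exposed larvae overlapped with 63.2, 86.3 and 77.4 CPM in controls (0.14 ± 0.13). At 7 dpf its 47.1, 50.1 and 37.2 CPM in exposed larvae all lay below the 81.0, 100 and 79.2 CPM of controls (-0.95 ± 0.14). No test was made of one paralog against the other.

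FOSB, a Fos subunit best known in mammals from neurons, had the widest swing. At 10 dpf it had 28.3, 32.2 and 37.6 CPM in exposed larvae, against 23.2, 18.1 and 18.8 CPM in controls (0.71 ± 0.19). At 7 dpf it had 35.4, 31.6 and 30.5 CPM in exposed larvae, against 42.6, 75.4 and 69.5 CPM in controls (-0.94 ± 0.19). Neither pair of groups overlapped. Exposed larvae had nearly the same mean at both ages (32.7 ± 4.67 CPM at 10 dpf and 32.5 ± 2.56 CPM at 7 dpf), while controls had 20.0 ± 2.81 CPM at 10 dpf and 62.5 ± 17.5 CPM at 7 dpf.

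FOS (ENSDARG00000031683, listed as fosab), the classical partner of JUN, had wide replicates. It had 502, 501 and 395 CPM in exposed larvae at 10 dpf, against 241, 426 and 354 CPM in controls (0.45 ± 0.24). At 7 dpf it had 300, 271 and 188 CPM in exposed larvae, against 283, 441 and 410 CPM in controls (-0.58 ± 0.25). The groups overlapped at both ages, through control replicate 2 at 10 dpf and control replicate 1 at 7 dpf. FOSL1, which encodes the Fos relative FRA-1, overlapped at both ages as well. It had 134, 193 and 233 CPM in exposed larvae at 10 dpf, against 164, 94.5 and 105 CPM in controls (0.63 ± 0.23), and its change at 7 dpf was 0.09 ± 0.23.

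ATF3, a stress-induced partner of Jun proteins that often acts as a repressor in mammals, was the exception at 10 dpf. It had 78.9, 105 and 115 CPM in exposed larvae of that age, against 107, 105 and 115 CPM in controls (-0.13 ± 0.19), with the libraries intermixed. At 7 dpf it had 45.8, 66.4 and 51.3 CPM in exposed larvae, against 114, 130 and 80.8 CPM in controls (-0.99 ± 0.19), without overlap. Exposed larvae at 7 dpf averaged 54.5 ± 10.7 CPM, and the other 3 groups lay between 99.8 and 109 CPM.

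Of the immediate-early genes outside AP-1, the NPAS4 genes were set apart at 10 dpf and intermixed at 7 dpf. NPAS4 encodes a factor that in mammals is induced mainly by calcium entry into active neurons. NPAS4 ENSDARG00000055752 had 236, 263 and 153 CPM in exposed larvae at 10 dpf, against 95.5, 121 and 118 CPM in controls (0.96 ± 0.21). At 7 dpf it had 122, 93.3 and 103 CPM in exposed larvae, against 134, 93.5 and 144 CPM in controls (-0.22 ± 0.21). Its mean was 218 ± 57.3 CPM in exposed larvae at 10 dpf, while the other 3 groups had overlapping libraries and means of 106 to 124 CPM. NPAS4 ENSDARG00000087753 was counted at 14.5, 15.9 and 9.93 CPM in exposed larvae at 10 dpf, against 8.15, 7.02 and 7.53 CPM in controls (0.83 ± 0.20), and its change at 7 dpf was -0.01 ± 0.20. Replicate 3 was the lowest of the exposed libraries at 10 dpf in both NPAS4 genes and still above the controls.

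The zinc finger factor egr1, much used as a marker of neuronal activity and growth factor signalling, had 151, 106 and 120 CPM in exposed larvae at 10 dpf, against 74.3, 88.6 and 113 CPM in controls (0.45 ± 0.17). Control replicate 3 lay within the exposed range. The paralogs ier2a and ier2b, which encode small nuclear proteins, also overlapped at 10 dpf (0.28 ± 0.12 and 0.42 ± 0.14). At 7 dpf egr1, ier2a and ier2b differed little between exposed and control larvae (0.26 ± 0.17, -0.11 ± 0.12 and 0.02 ± 0.14).

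**Figure D2:**
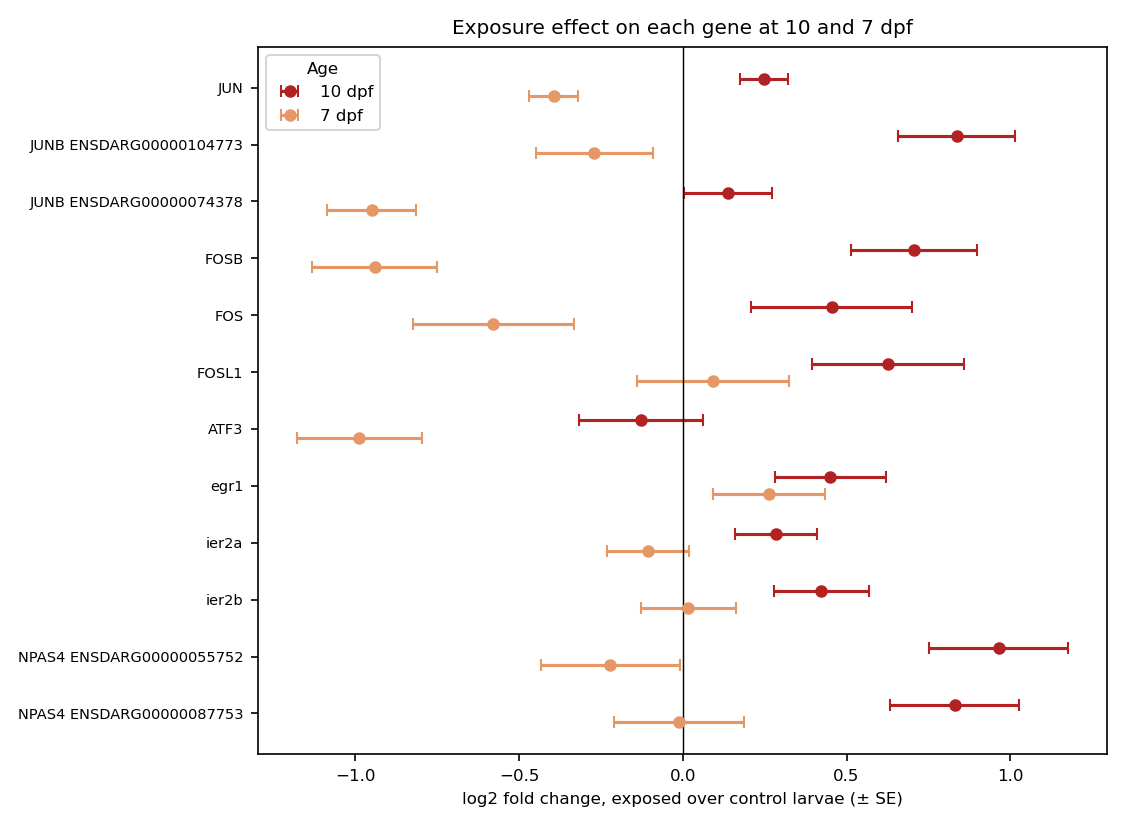
Log2 fold change of each listed gene in exposed against control larvae, at 10 dpf and 7 dpf (horizontal axis), with bars of 1 SE derived from edgeR's F statistic. At 10 dpf 11 of 12 points lie above 0 and at 7 dpf 9 of 12 lie below it (8 with RLE or upper quartile scaling, NPAS4 ENSDARG00000087753 being at -0.01), with ATF3 below 0 at both ages.

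Counted by the test over all genes (edgeR's quasi-likelihood test with Benjamini-Hochberg adjustment and a threshold of 0.05), 5 of 12 listed genes were past the threshold at 10 dpf. They were JUN, JUNB ENSDARG00000104773, FOSB and both NPAS4 genes, and all were higher in exposed larvae. The background was 11.8% of all tested genes, 4.77% for higher ones. The libraries of exposed and control larvae did not overlap in the same 5 genes, all higher in exposed larvae, where this was so in 33.8% of all genes, 15.4% higher and 18.4% lower. At 7 dpf JUN and JUNB ENSDARG00000074378 were past the threshold and lower, at a background of 0.516%, or 0.338% for lower ones. In 4 genes (these 2, FOSB and ATF3) all exposed libraries lay below all controls, as in 8.6% of all genes (16.7% in either direction). The difference between the effects at the 2 ages was past the threshold in JUN (0.64 ± 0.10), JUNB ENSDARG00000074378 (1.09 ± 0.19) and FOSB (1.65 ± 0.27), at a background of 0.269%, or 0.104% for higher ones. Since the same differences chose the genes, nothing is read from these counts.

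Single libraries moved the counts. At 10 dpf the count of 5 was 4 without exposed replicate 1, 2 without exposed replicate 2 or control replicate 1, and 3 without control replicate 2, control replicate 3 or exposed replicate 3 of 7 dpf. Without exposed replicate 1 of 10 dpf, the changes at that age were 0.28 in JUN, 0.85 in JUNB ENSDARG00000104773, 0.80 in FOSB, 0.91 in NPAS4 ENSDARG00000055752 and 0.78 in NPAS4 ENSDARG00000087753. JUN and NPAS4 ENSDARG00000055752 were then no longer past the threshold and FOSL1 was, at a background of 2.62% for higher genes. FOSL1 had 0.82 and egr1 0.30 without that library, and ATF3 had 0.02 in place of -0.13. At 7 dpf the count of 2 fell to 0 when exposed replicate 1 or control replicate 2 was left out, and was 4 without exposed replicate 1 of 10 dpf, a library in neither group of that comparison. It was 1 without exposed replicates 2 or 3 or control replicate 1 of that age, and also without exposed replicate 2 or control replicates 1 or 3 of 10 dpf. The count of 3 for the difference was 2 without control replicate 1 of 7 dpf, exposed replicate 1 of 10 dpf or control replicate 2 of 10 dpf, and 0 or 1 without any other library.

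The change with age, 10 against 7 dpf, was not used to choose the genes and was tested. The age changes in exposed and in control larvae and the exposure changes are built from the same 4 group means, so that the age change in exposed minus that in control larvae equals the exposure change at 10 dpf minus that at 7 dpf. The age results are therefore not a second, separate source for the pattern above. Choosing genes on the exposure changes can also tilt their age changes, so the p-values with age are not free of that choice.

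In exposed larvae 9 of 12 listed genes rose between the ages and none fell, with a median of 0.75. Over all tested genes the median was 0.01, and 23.2% passed the test, 10.8% upward. The 9 were also those in which every library at 10 dpf lay above every library at 7 dpf, a pattern in 19.4% of all genes. No overlap in either direction was found in 39.6% of all genes, with 20.2% downward. Both ier2 genes rose, ier2b to 160, 142 and 121 CPM at 10 dpf, against 80.7, 77.2 and 62.9 CPM at 7 dpf (0.94 ± 0.15, adjusted p = 0.000587 by edgeR), and ier2a by 0.79 ± 0.13 (edgeR adjusted p = 0.000571). JUNB ENSDARG00000074378 rose by 0.89 ± 0.14 (edgeR adjusted p = 0.000491), JUN by 0.41 ± 0.07 (0.00138) and JUNB ENSDARG00000104773 by 0.71 ± 0.18 (0.014). NPAS4 ENSDARG00000055752 rose by 1.04 ± 0.21 (edgeR adjusted p = 0.00578), ATF3 by 0.87 ± 0.19 (0.00764), egr1 by 0.71 ± 0.17 (0.0113) and FOS by 0.88 ± 0.25 (0.027).

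The call for FOS was lost without any of exposed replicates 2 and 3 of 7 dpf and 1 and 2 of 10 dpf (edgeR adjusted p = 0.0615, 0.0805, 0.0776 and 0.0817), and no other listed gene lost its call in exposed larvae when a library was left out. Without exposed replicate 1 of 10 dpf the other 8 genes had changes of 0.429 (JUN) to 1.003 (ATF3), and 9.29% of all genes rose. With the exposed groups fitted alone JUNB ENSDARG00000104773 lost its call (0.0622). NPAS4 ENSDARG00000087753 was just outside the threshold (0.58 ± 0.20, edgeR adjusted p = 0.0503). It was called without exposed replicate 1 of 7 dpf (0.045), control replicates 2 or 3 of 7 dpf (0.026 and 0.0416) or exposed replicate 3 of 10 dpf (0.00881), with RLE or upper quartile scaling (0.0495 and 0.041), with the filter on CPM (0.0419) and by DESeq2 (0.023). FOSB (0.01 ± 0.19, edgeR adjusted p = 0.984) and FOSL1 (-0.06 ± 0.23, adjusted p = 0.893) did not pass.

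In control larvae 5 of 12 passed, 3 upward and 2 downward, with a median of -0.18 against -0.01 over all genes. The background was 29.3%, with 14.3% upward and 15% downward, and with 12 genes nothing is read from the share called. The libraries of the ages did not overlap in 7 listed genes, against 46.1% of all genes. FOSB fell most, to 23.2, 18.1 and 18.8 CPM at 10 dpf, against 42.6, 75.4 and 69.5 CPM at 7 dpf (-1.64 ± 0.19, edgeR adjusted p = 0.000117), and this call held whichever library was left out. JUN fell by 0.23 ± 0.07 on the log2 scale (edgeR adjusted p = 0.0311). The genes that rose were ier2b (0.53 ± 0.14, edgeR adjusted p = 0.0147), ier2a (0.40 ± 0.12, adjusted p = 0.0272) and egr1 (0.52 ± 0.17, adjusted p = 0.0394), and the same 3 rose in exposed larvae.

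The remaining 7 genes did not pass in controls by edgeR with all libraries. Their log2 changes ran from -0.59 ± 0.23 in FOSL1 (edgeR adjusted p = 0.0836) and -0.39 ± 0.18 in JUNB ENSDARG00000104773 (0.122) to 0.01 ± 0.19 in ATF3 (0.97). FOSL1 was called as lower by DESeq2 (0.0253) and without exposed or control replicate 1 of 10 dpf (edgeR adjusted p = 0.0364 and 0.0127). JUNB ENSDARG00000104773 was called as lower with the control groups fitted alone (0.0142) and without exposed replicate 3 of 7 dpf (0.0197). Of the calls other than FOSB, all were lost without control replicate 1 of 7 dpf (adjusted p = 0.0585 to 0.106), which left a count of 1. The count was 2 without control replicate 2 or control replicate 3 of 10 dpf and 3 without control replicate 2 of 7 dpf. Over all genes 6770 were called with all libraries, and 6268, 5268, 5912 and 5121 without these libraries in the order given. JUN passed upward with age in exposed and downward in control larvae. The gap between these changes equals the difference of the exposure changes, which was known when JUN was chosen, so nothing is read from it. The call of JUN in controls was also lost without control replicate 2 of 7 dpf or control replicates 1 or 3 of 10 dpf (edgeR adjusted p up to 0.132), and with the control groups fitted alone (0.0532).

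**Figure D3:**
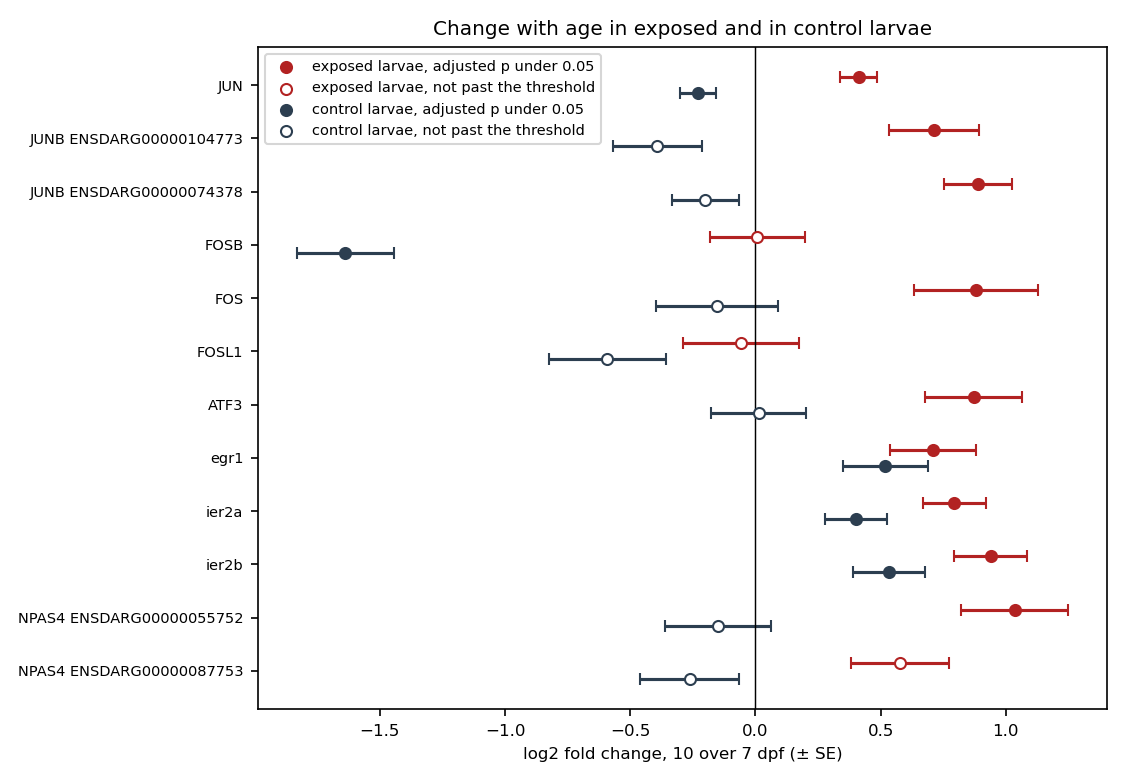
Log2 fold change of each listed gene at 10 against 7 dpf (horizontal axis) in exposed and in control larvae, with bars of 1 SE derived from edgeR's F statistic. Filled points passed the test over all genes. In exposed larvae 9 of 12 rose and in control larvae 3 rose and 2 fell.

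Replicates also differed in the listed genes, apart from the groups. Deviations of log2 CPM from the group mean were correlated over the 12 libraries, which leave 8 residual degrees of freedom, and are given as a description without a p. Libraries share depth and composition across all genes, which could also move genes together. Of the 66 pairs of listed genes 43 had r above 0 and 13 above 0.5, with a median of 0.19. These are 66.7% and 19.7% of the pairs, where over all pairs of tested genes 49.9% were above 0 and 13.3% above 0.5, with a median of -0.001. The median of the listed genes was 0.002 without exposed replicate 3 of 7 dpf, the shallowest library, in which all 12 genes lay below their group mean (50% of pairs above 0, as over all genes), and 0.124 to 0.223 without any other library.

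FOS, JUNB ENSDARG00000074378, ier2a and ier2b moved together most closely, with r between 0.854 and 0.944 in all their pairs, and 0.793 or more in each pair when any library was left out. This group was seen in the correlations and not set beforehand. In the 4 genes exposed replicate 3 of 7 dpf, exposed replicate 3 of 10 dpf and control replicates 1 of both ages lay below their group means. For FOS these deviations were -0.40 and -0.23 in the exposed libraries of 7 and 10 dpf, and -0.39 and -0.46 in the controls of 7 and 10 dpf (log2). The NPAS4 pair had r of 0.853, 0.752 or more with any library left out. Both NPAS4 genes ran against JUN and ATF3. The lowest correlations were those of JUN and ATF3 with NPAS4 ENSDARG00000087753 (-0.679 and -0.676) and of FOSL1 with NPAS4 ENSDARG00000055752 (-0.67). These stayed at -0.529 or lower with any library left out. FOSL1 had -0.302 with NPAS4 ENSDARG00000087753, and -0.002 without exposed replicate 3 of 10 dpf.

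**Figure D4:**
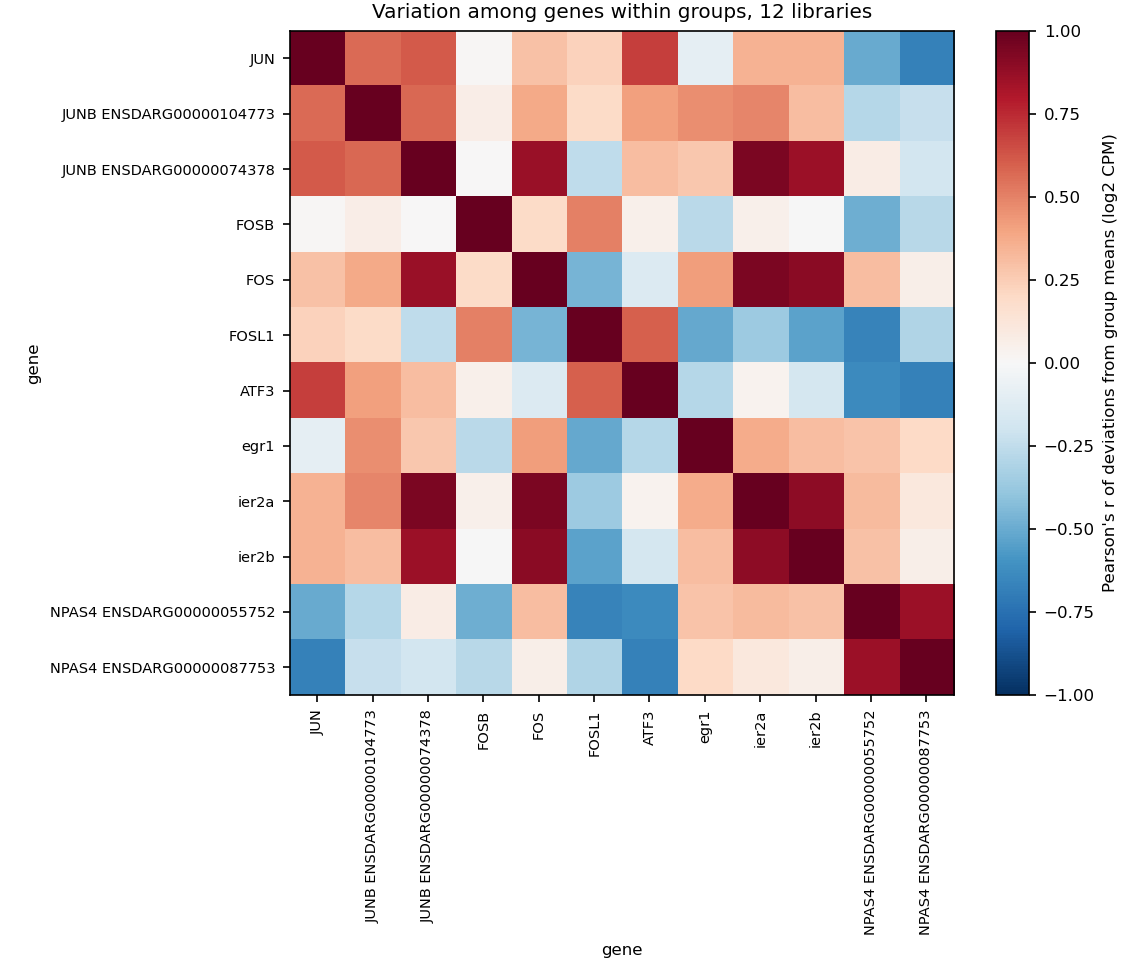
Pearson correlation between listed genes of deviations from the group mean of log2 CPM over 12 libraries (colour scale from -1 to 1). FOS, JUNB ENSDARG00000074378, ier2a and ier2b have r of 0.854 or more with each other, and the NPAS4 pair has 0.853.

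The wider pathway was described with 6 further lists, which hold 173 symbols, 10 of them without a match. These genes were tested in every comparison. The lists too were chosen with earlier results of these data known, so their counts are not free of that knowledge. At 10 dpf further immediate-early genes were higher in exposed larvae than in controls of that age. Of their upstream kinases and factors and of the AP-1 targets 1 or 2 passed the test, and no heat shock gene did. In comparisons of exposed with control larvae, rose and fell mean higher and lower than in controls of the same age. Of the immediate-early and AP-1 genes named for 10 dpf, NR4A1, both PER1 genes, JUND, fosaa, BDNF and SIK1 fell with age in controls. None of these rose with age in exposed larvae. The named egr4, DUSP2 and DUSP5 did not pass with age in controls, and egr4 rose with age in exposed larvae. Of 31 other immediate-early transcription factors 10 rose and none fell, with 26 above 0 and a median of 0.31. Of 41 immediate-early genes that encode no transcription factor 10 rose and none fell, with 30 above 0 and a median of 0.21. Of 16 other AP-1 subunits and partners 2 rose and none fell (median 0.10). The background of rises was the 4.77% given above. Without exposed replicate 1 of that age these rises were 9, 12 and 3, at a background of 2.62%, and the medians were 0.37, 0.29 and 0.07.

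NR4A1, an orphan nuclear receptor induced by many stimuli, had 85.4, 81.8 and 85.7 CPM in exposed larvae at 10 dpf, against 43.4, 54.5 and 44.1 CPM in controls (0.83, edgeR adjusted p = 0.000557). The clock repressor genes PER1 ENSDARG00000012499 and PER1 ENSDARG00000056885, which are also immediate-early genes, rose by 0.74 and 0.43 (edgeR adjusted p = 0.000746 and 0.00694). In NR4A1 and both PER1 genes no exposed library overlapped with a control. The zinc finger gene egr4 rose by 0.74 ± 0.16 (edgeR adjusted p = 0.0123, and 0.0533 without control replicate 1 of that age). Without exposed replicate 1 of that age NR4A1 had 0.83, the 2 PER1 genes 0.74 and 0.40, and egr4 0.66, all still past the threshold. Among the AP-1 genes JUND, the Jun subunit that is usually present without a stimulus, rose by 0.58 (edgeR adjusted p = 0.00525), and the Fos paralog fosaa rose by 1.03 (adjusted p = 0.0394). The call for fosaa was lost without any of 7 single libraries (edgeR adjusted p up to 0.106). It was also lost with no filter, with replicate numbers in the fit and with the 10 dpf groups fitted alone (edgeR adjusted p = 0.0571, 0.0767 and 0.127). JUND and fosaa had 0.67 and 1.18 without exposed replicate 1 of that age, both past the threshold.

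Of the others, BDNF, a neurotrophin whose gene is induced by neuronal activity, had 22.3, 22.1 and 24.2 CPM in exposed larvae at 10 dpf, against 15.6, 12.9 and 13.5 CPM in controls (0.71, edgeR adjusted p = 0.000746). SIK1, a kinase induced by cyclic AMP, rose by 0.56 (edgeR adjusted p = 0.0075). DUSP2 and DUSP5, phosphatases that switch off mitogen-activated protein kinases, rose by 0.52 and 0.51 (edgeR adjusted p = 0.01 and 0.0148). These 4 kept their calls whichever library was left out, with 0.73, 0.64, 0.59 and 0.58 in the same order without exposed replicate 1 of that age. Together the 3 lists had 22 rises among 88 genes at 10 dpf. The count was 24 without exposed replicate 1 of 10 dpf, 14 without exposed replicate 2 or 3, and 13 without control replicate 2 or 3 of that age. Over all genes 2721 were called at 10 dpf with all libraries. Left out in the same order, these libraries gave 1533, 2022, 2145, 1540 and 1986.

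Of 28 upstream kinases and factors, the CREB coactivator gene crtc3 rose (0.31, edgeR adjusted p = 0.0428) and the kinase gene MAP2K2 fell (-0.27, adjusted p = 0.0327). Of 24 AP-1 targets known mostly from mammals TNC ENSDARG00000078362, which encodes the matrix protein tenascin C, rose (0.27, edgeR adjusted p = 0.0383). All 3 calls were lost without several single libraries (edgeR adjusted p up to 0.149, 0.126 and 0.132), among them exposed replicate 1 of that age (0.127, 0.126 and 0.104). Of 23 heat shock genes none passed by edgeR, with 0 higher and 3 lower at an unadjusted p under 0.05 and 2 lower by DESeq2, at a median of -0.10. Without exposed replicate 1 of that age the median was -0.05 and again none passed. In 7 of the 23 all exposed libraries lay below all controls, and in 0 above (18.4% and 15.4% of all genes). The summed level of the 23 genes was 7820, 9300 and 9370 CPM in exposed larvae, the lowest in replicate 1, against 9750 to 9920 CPM in controls. HSP90AB1 alone had 5240, 6250 and 6150 CPM in exposed larvae, against 6310, 6380 and 6280 CPM in controls (means of 5880 and 6320 CPM). MMP9 and mmp13a, matrix metalloproteinase genes that are classical AP-1 targets, were named after their values were seen and did not pass (-0.22 ± 0.60, adjusted p = 0.845, and -0.40 ± 0.62, adjusted p = 0.714).

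**Figure D5:**
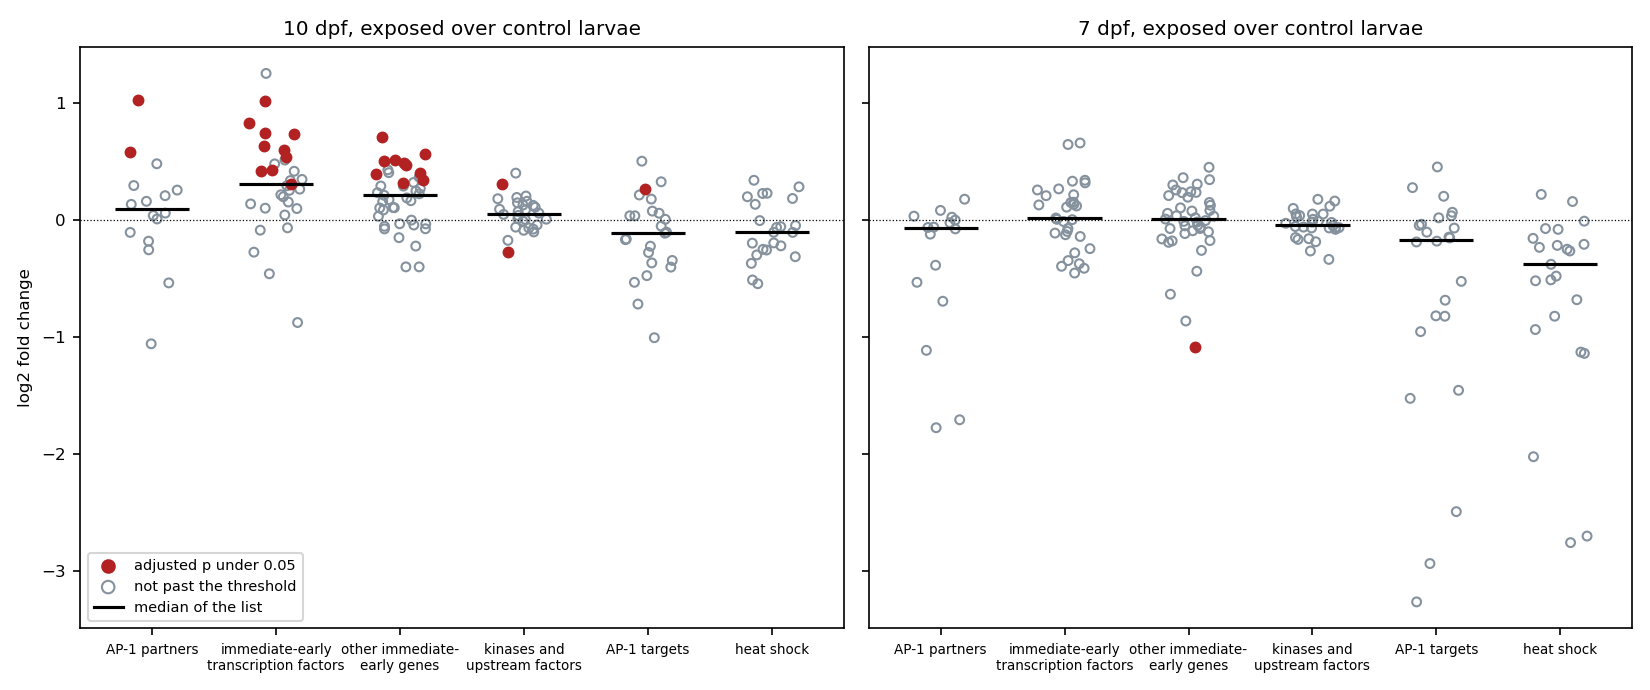
Log2 fold changes of the genes of each list (points) with their medians (lines) and the genes past the threshold filled (exposed over control) for either age. At 10 dpf the median of the other immediate-early transcription factors is 0.31 and that of heat shock genes -0.10; at 7 dpf they are 0.02 and -0.38.

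At 7 dpf 1 gene of the 6 lists passed. SOCS3 ENSDARG00000026611, an inhibitor of cytokine signalling, fell to 28.3, 35.9 and 32.7 CPM in exposed larvae, against 71.5, 79.3 and 55.2 CPM in controls (-1.09, edgeR adjusted p = 0.00735). At that age the other AP-1 subunits and partners had 0 calls by edgeR, 0 higher and 3 lower at an unadjusted p under 0.05 and 3 lower by DESeq2. The immediate-early factors had 0, with 4 higher and 3 lower unadjusted and 2 higher by DESeq2, and the upstream kinases and factors had 0 by each count. The AP-1 targets had 0, with 1 higher and 9 lower unadjusted and 2 lower by DESeq2. The heat shock genes had 0, with 0 higher and 7 lower unadjusted and 1 lower by DESeq2. The medians of the last 2 lists were -0.17 and -0.38.

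The difference between the exposure effects at the 2 ages called none of the genes in the 6 lists by edgeR. At an unadjusted p under 0.05 it was positive in 11 and negative in 1 of the immediate-early factors, positive in 12 and negative in none of the genes that encode no factor, and positive in 2 of the AP-1 partners. DESeq2 called 1, 3 and 2 of these as positive. In the list of upstream kinases and factors CREB1, a factor gene, and crtc3 were positive at an unadjusted p under 0.05 and no kinase was. These 2, and the AP-1 targets TNC ENSDARG00000078362 (positive) and HMOX1 (negative) that passed unadjusted, were called by neither tool, and heat shock genes had 0 by every count.

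With age, the backgrounds were 10.8% of all genes higher and 12.4% lower in exposed larvae, and 14.3% higher and 15% lower in controls. Of the 31 immediate-early factors 8 rose and 3 fell in exposed larvae (25.8% and 9.68%), and 5 rose and 9 fell in controls (16.1% and 29%), so that the rises in controls were near the background. The factor gene egr4 rose in exposed larvae, to 107, 105 and 75.6 CPM at 10 dpf, against 49.0, 44.5 and 42.0 CPM at 7 dpf (1.08, edgeR adjusted p = 0.00048), and did not pass in controls (-0.05, adjusted p = 0.835). NR4A1 fell in exposed and control larvae (-0.33 and -0.82, edgeR adjusted p = 0.03 and 6.39e-05), and PER1 ENSDARG00000056885 fell in exposed and control larvae (-0.61 and -0.77, adjusted p = 0.000189 and 2.36e-05). PER1 ENSDARG00000012499 had -0.23 in exposed larvae (edgeR adjusted p = 0.103) and fell in controls (-0.63, adjusted p = 0.000304).

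Of the 41 genes that encode no factor 8 rose and 3 fell in exposed larvae (19.5% and 7.32%), and 8 rose and 10 fell in controls (19.5% and 24.4%), against the backgrounds of 10.8% and 12.4%, and 14.3% and 15%. The NF-kB inhibitor gene nfkbiaa rose in exposed and control larvae (0.61 and 0.64, edgeR adjusted p = 0.00037 and 2e-04), and GADD45G ENSDARG00000016725, a growth arrest gene, fell in both (-0.88 and -1.05, adjusted p = 0.000304 and 6.61e-05). BDNF had 0.08 in exposed larvae (edgeR adjusted p = 0.589) and fell in controls (-0.59, adjusted p = 0.000389). SIK1 fell in exposed and control larvae (-0.37 and -0.58, edgeR adjusted p = 0.0294 and 0.00164). DUSP2 and DUSP5 passed in neither (0.183 and 0.275 in exposed larvae, -0.024 and -0.035 in controls). None of the AP-1 partners passed in exposed larvae (0 unadjusted, 0 by DESeq2), and 4 of 16 fell in controls (25% against 15%), among them JUND (0.06 in exposed and -0.60 in control larvae, edgeR adjusted p = 0.743 and 0.0011) and fosaa (-0.55 and -1.40, adjusted p = 0.173 and 0.00399).

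AP-1 targets fell with age in exposed (8 of 24, none rose) and control larvae (10 of 24, 1 rose), shares of 33.3% and 41.7% against backgrounds of 12.4% and 15%. The smallest p were those of TNC ENSDARG00000078362 (-0.98 in exposed and -1.21 in control larvae, edgeR adjusted p = 2.25e-06 and 2.51e-07) and TNC ENSDARG00000021948 (-1.50 and -1.80, adjusted p = 2.07e-05 and 3.96e-06). Of 28 upstream kinases and factors 4 rose and 1 fell in exposed larvae, and 3 rose and 2 fell in controls. The share called was 17.9% in each, below the backgrounds of 23.2% and 29.3%. Among them map2k4b, a kinase gene of the Jun N-terminal kinase route, rose in exposed and control larvae (0.46 and 0.39, edgeR adjusted p = 0.00219 and 0.00521), and crtc3 rose in exposed larvae (0.53, adjusted p = 0.00118) and had 0.15 in controls (adjusted p = 0.233). MAP2K1 had -0.14 in exposed larvae (edgeR adjusted p = 0.176) and fell in controls (-0.32, adjusted p = 0.0038). Of the 23 heat shock genes 3 rose and 1 fell in exposed larvae, and 2 rose and 3 fell in controls, shares called of 17.4% and 21.7% and also below the backgrounds. The chaperone gene HSP90AB1 rose in exposed and control larvae (0.35 and 0.44, edgeR adjusted p = 0.00582 and 0.000936), and dnajb1a rose in exposed larvae (0.50, adjusted p = 0.00735) and had 0.31 in controls (adjusted p = 0.056). HSPA4 ENSDARG00000018989 had 0.22 in exposed larvae (edgeR adjusted p = 0.125) and rose in controls (0.46, adjusted p = 0.00335). Without exposed replicate 1 of 10 dpf the rises and falls in exposed larvae were 8 and 3 for the factors, 8 and 1 for the genes that encode no factor, 3 and 1 for the upstream genes, 0 and 7 for the targets and 4 and 1 for the heat shock genes.

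Some markers of cell types also differed between exposed and control larvae at 10 dpf. Over all tested genes 4.77% were called higher and 7.02% lower in exposed larvae at that age. Of 7 neuron markers 3 rose in exposed larvae and 1 was below 0, at -0.205. The summed level of the 7 was 1520 to 1760 CPM in exposed larvae, against 1260 to 1370 CPM in controls. Of 5 epidermis markers 3 rose, with a summed level of 4220 to 5010 CPM in exposed larvae, against 2520 to 2680 CPM in controls. The other 2 were below 0, the lowest at -0.41. Of the 5, 1 was lower at an unadjusted p under 0.05 and 1 by DESeq2. Of 7 lens and retina markers 4 rose (589 to 792 CPM, against 392 to 467 CPM). The summed fast muscle markers were 9180 to 9690 CPM in exposed larvae, against 8550 to 8960 CPM in controls, and none of the 6 passed (0 higher and 0 lower by edgeR, 2 higher and 0 lower at an unadjusted p under 0.05, 2 higher by DESeq2). Of 10 tested macrophage markers 2 fell. The sum over these 10 genes was 76.3 to 108 CPM in exposed larvae, against 145 to 164 CPM in controls. Of the 14 matched macrophage genes, MPEG1 ENSDARG00000078569, MFAP4 ENSDARG00000111491 and MFAP4 ENSDARG00000116066 had 0 reads in 11, 7 and 2 of the 12 libraries. They were not tested and are not in the sum. None of these 5 sums overlapped between exposed and control larvae, with or without exposed replicate 1. The same numbers of neuron, epidermis, lens and retina, and macrophage markers passed without it, at backgrounds of 2.62% higher and 3.91% lower. With age, 4 of 7 neuron, 3 of 5 epidermis, 6 of 7 lens and retina and 5 of 6 fast muscle markers fell in controls and none rose. Of the 10 macrophage markers 3 rose and none fell. The background in controls was 14.3% higher and 15% lower. In exposed larvae 2, 2, 5 and 4 fell in the same order, and 3 macrophage markers rose. The part of age in the differences at 10 dpf was not tested.

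At 7 dpf the summed macrophage markers were 61.8 to 74.7 CPM in exposed larvae, against 75.0 to 117 CPM in controls. Of the 10 tested 1 fell, at a background of 0.338% for lower genes. The summed lens and retina markers were 1350 to 1480 CPM in exposed larvae, against 1110 to 1220 CPM in controls, and those of erythrocytes 49.2 to 56.6 CPM, against 35.6 to 44.9 CPM, with no marker of either past the threshold (3 and 0 higher and none lower at an unadjusted p under 0.05, 0 by DESeq2). Neuron markers overlapped at that age (1500 to 1680 CPM in exposed larvae, against 1470 to 1710 CPM in controls). The part of these markers in the levels of the listed genes was not tested. The summed markers of liver, pancreas and intestine overlapped between exposed and control larvae at both ages. Of the 8 intestine markers 4 did not overlap at 7 dpf (16.7% of all genes), 2 higher and 2 lower in exposed larvae. At 10 dpf 2 of these markers did not overlap (33.8% of all genes), 1 in each direction. FABP6, an ileal bile acid binding protein gene among them and named after its values were seen, was higher in exposed larvae at 10 dpf (0.71, edgeR adjusted p = 0.00349) and had -0.50 at 7 dpf (0.0896), and the difference between the ages passed (1.21 ± 0.17, edgeR adjusted p = 0.0172, and 0.0526, 0.052 and 0.0542 without exposed replicates 1 or 3 or control replicate 2 of 7 dpf). Without exposed replicate 1 of 10 dpf FABP6 had 0.65 at that age (edgeR adjusted p = 0.00987), and the difference was 1.135 (adjusted p = 0.0254).

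For each library the listed genes were also summarised by the mean of their log2 CPM, each gene centred on its own mean over all libraries. This mean was 0.36, 0.41 and 0.31 in exposed larvae at 10 dpf, against -0.21, -0.08 and -0.08 in controls, and -0.20, -0.18 and -0.48 in exposed larvae at 7 dpf, against -0.02, 0.11 and 0.07 in controls. Exposed larvae at 10 dpf were highest and those at 7 dpf lowest or nearly so, with control replicate 1 of 10 dpf at the level of the exposed libraries of 7 dpf.

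The 6 genes whose levels followed this mean most closely over the 12 libraries, among 16798 other named genes that averaged 1 CPM or more, were ZDHHC9 (Pearson r = 0.931), gon4la (0.887), GPR135 (0.879), CARTPT (0.871), STAMBP (0.871) and pde6ha (0.867). ZDHHC9 encodes a palmitoyltransferase, CARTPT an appetite neuropeptide and pde6ha a subunit of cone phosphodiesterase. CARTPT was close to the minimum of 1 CPM, with group means of 0.97 to 1.38 CPM. ZDHHC9 had 67.2 ± 1.57 CPM in exposed and 60.7 ± 0.691 CPM in control larvae at 10 dpf, and 60.0 ± 1.84 CPM in exposed and 62.9 ± 2.57 CPM in control larvae at 7 dpf (SD, n = 3). The level of pde6ha was 231 ± 16.9 CPM in exposed and 155 ± 12.3 CPM in control larvae at 10 dpf, and 139 ± 6.17 CPM in exposed and 172 ± 27.8 CPM in control larvae at 7 dpf. Without exposed replicate 1 of 10 dpf ZDHHC9 (0.923), STAMBP (0.882), gon4la (0.861) and CARTPT (0.855) were still among the 6 with the highest r, with FLVCR2 (0.87) and PIM1 (0.857) in place of GPR135 (0.852) and pde6ha (0.836). These r share the 4 groups and the libraries, carry no p and were picked as the highest of many.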

How the data were processed

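Values were the read counts per gene that the authors deposited for each library, made with STAR on build GRCz11 per the submitters' processing notes; neither the STAR version nor the annotation release is given in those sources. Libraries were stranded and read from both ends, per the labels' protocols. Of the 3 deposited count columns the reverse-strand one was taken, because 2.24 to 2.55% of reads on genes lay on the opposite strand. Lines for reads outside genes were left out, and reads that map to several places are counted there, so reads shared by near-identical paralogs are not in the values. Symbols came from a table of gene identifiers (28988 of 32057 genes named), with RefSeq synonyms.

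Low genes were removed by filterByExpr of edgeR (minimum count 10 and minimum total 15). The rest were scaled with TMM and fitted with the robust quasi-likelihood model, with a mean for each group (8 residual degrees of freedom). Two-sided p-values were adjusted by Benjamini-Hochberg over 23075 genes at a threshold of 0.05. The SE of a log2 fold change was derived from the test, as its absolute value divided by the square root of the quasi-likelihood F statistic. CPM used TMM-scaled library sizes, and log2 CPM a prior count of 2. The 5 comparisons were exposed against control at each age, their difference, and 10 against 7 dpf in exposed and in control larvae. The members and lists were chosen with earlier results of these data known. From each list up to 4 called genes with the smallest p were named at each exposure comparison and up to 2 at each age comparison, and 6 for likeness.

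Same-numbered libraries did not deviate together (r of deviations from -0.2 to 0.224 across comparisons), so the replicate numbers were not taken as pairs. Alternatives were RLE and upper quartile scaling, other filters, the replicate block, unstranded counts, DESeq2, the compared groups alone, and leaving out each library. With the results already seen, leaving libraries out of the correlations and the likeness was added, and so were the alternatives for FABP6. The fit was tested on simulated data. Sequences and gene positions were not used here. The software was DESeq2 1.42.0, edgeR 4.0.16 and limma 3.58.1 in R 4.3.3, with figures by matplotlib 3.10.9.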

Additional observations from a re-analysis of the deposited data

Results flagged for a closer look

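In JUN and FOSB all exposed libraries lay above all controls at 10 dpf and below all of them at 7 dpf. Over all genes the first was so in 15.4% and the second in 8.6%, and the share with both was not counted. The log2 difference between the exposure changes, 10 minus 7 dpf, was 0.64 in JUN and 1.65 in FOSB. The genes were chosen with these differences known, so this is a description, and nothing is read from the test of the difference for them. The intestine marker FABP6 ENSDARG00000044566 parted in the same directions. FABP6 was picked from the markers because the test of the difference passed for it (1.21, edgeR adjusted p = 0.0172). Nothing more is therefore read from that pass, and the call was lost without any of 3 single libraries of 7 dpf.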

How the results depend on the processing

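With all libraries, the listed genes kept the direction of each exposure change under every scaling, filter and fit tried, except NPAS4 ENSDARG00000087753 at 7 dpf (-0.011, and 0.008, 0.001 and 0.007 with RLE, upper quartile scaling and DESeq2). Of the listed genes past the threshold, the replicate block left 1 (2 without it) at 7 dpf, 3 (5) at 10 dpf, 1 (3) for the difference, 9 (9) between ages in exposed larvae and 4 (5) between ages in controls, where egr1 lost its call (adjusted p = 0.0646). DESeq2 gave 4 at 7 dpf and 5 for the difference, and the compared groups alone gave 1 at 7 dpf. Over all genes the replicate block called 62 (119 without it) at 7 dpf, 2088 (2721) at 10 dpf and 22 (62) for the difference. Between ages it called 4847 (5343) in exposed larvae and 6264 (6770) in controls. DESeq2 called 584 at 7 dpf and 275 for the difference, and the compared groups alone 66 at 7 dpf. No filter called 64 for the difference. Among the 88 genes of the 3 related lists DESeq2 called 7 at 7 dpf (1 by edgeR) and 6 for the difference (0), and no filter gave 1 for the difference. Leaving out each library gave 0 to 4 listed genes at 7 dpf, 2 to 5 at 10 dpf, 0 to 2 for the difference, 8 to 10 between ages in exposed larvae and 1 to 6 between ages in controls. In the related lists it gave 1 to 3, 13 to 24, 0 to 1, 16 to 22 and 26 to 43 in that order. Over all genes it gave 12 to 831, 1153 to 3118, 10 to 63, 3722 to 5421 and 5044 to 7890. The median correlation within groups was 0.002 to 0.223 as libraries were left out. Signs also turned in exposure changes as libraries were left out. At 7 dpf these were ier2a (-0.163 to 0.01, above 0 without exposed replicate 3), ier2b (-0.042 to 0.116, below 0 without exposed replicates 1 or 2 or control replicate 1), FOSL1 (-0.032 to 0.158, below 0 without exposed replicate 2) and NPAS4 ENSDARG00000087753 (-0.188 to 0.138, above 0 without any of 5 libraries). At 10 dpf it was ATF3 (-0.226 to 0.021, above 0 without exposed replicate 1). Signs turned in age changes near 0 that were not called. In controls these were ATF3 (-0.16 to 0.16, below 0 without control replicate 3 of either age) and FOS (-0.345 to 0.052, above 0 without control replicate 1 of 10 dpf), as libraries were left out. In exposed larvae these were FOSB (-0.003 with the replicate block, and -0.09 to 0.09 as libraries were left out, below 0 without exposed replicate 3 of either age) and FOSL1 (-0.23 to 0.12, above 0 without exposed replicate 2 of 7 dpf or replicate 1 of 10 dpf). The cause was not tested. Fitting the compared groups alone was not possible for the difference, which uses all groups.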
